A study of Mus musculus with 24 samples.

Results

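The genes described here are 10 components of the IL6 and LIF cytokine pathway, measured in mouse blastocysts. They are the ligands Il6 and Lif, the receptor subunits Il6ra, Il6st, Lifr and Osmr, the kinases Jak1 and Jak2, the transcription factor Stat3 and the feedback inhibitor Socs3. They were chosen by name, with measured values of these samples in view, so their levels are a description and each test between conditions is that of a fit over all genes. Every array probe carrying one of these gene names was taken, which gave 21 of the 56605 probes on the array. The filter on dim signals kept 16 of the 21 probes, and 9 of the 10 genes were among the 18448 genes tested. Osmr was the gene that did not pass.

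IL6 and LIF belong to a family of cytokines that share the signal-transducing receptor gp130, the product of Il6st. IL6 first binds its own receptor subunit IL6RA and then gp130, whereas LIF binds LIFR, which pairs with gp130. The paired receptors bring Janus kinases together, STAT3 is phosphorylated and enters the nucleus, and SOCS3, whose gene is a STAT3 target, binds the receptor complex and dampens the signal. In the mouse, uterine LIF is required for implantation, and LIF acting through STAT3 sustains embryonic stem cells derived from the inner cell mass.

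Each array measured RNA from a pool of expanded blastocysts that had been frozen, and 24 such pools were spread evenly over 6 codes, HC1, HC2, HC3, HC4, HC5 and HC6, giving 4 to each. There were 15 embryos in a pool of HC1, HC2, HC3, HC4 or HC5 and 20 in a pool of HC6, so the code HC6 and its pool size cannot be told apart. The study's subject, by its title, is bisphenol A (an estrogenic monomer of plastics) and membrane estrogen receptors, but the labels give neither the treatment behind a code nor a control, nor strain, embryo age or culture. Each condition was therefore compared with the other 5, and nothing in the labels says that pools of a code came from separate animals, so p-values measure the spread between pools.

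Signals below are log2 values of the processed array signal minus the 75th percentile of the same array, so 0 is that percentile, and a value is compared between pools only within a probe. That percentile ran from 47.3 to 128 signal units, and 38.6% to 49.7% of spots were well above background on an array. Markers of the blastocyst's cell types were present: 10 of 10 markers of the inner cell mass and epiblast, 10 of 10 of the primitive endoderm and 9 of 10 of the trophectoderm were tested, the exception being Hand1. Of markers of other cells that could adhere to embryos, 6 of 10 leukocyte, 3 of 10 cumulus or granulosa and 3 of 10 uterine epithelial genes were tested. In pools of whole embryos, fewer cells of a type and less RNA per cell cannot be told apart.

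The sequences that go with these genes are given first. The stretch before the Socs3 start site is shown because Socs3 varied together with 2 receptor genes, and that of Il6 because Il6 varied most of the tested members. Each is the stretch of 250 bases before the start site in the RefSeq table (GRCm38.p6). The Socs3 stretch lies on the minus strand at chr11:117969367-117969616, and its capitals mark a match to the STAT motif TTCNNNGAA, at 154 to 146 bases before the start. That start lies 970 bases inside the gene's RefSeq span, so the whole Socs3 stretch falls within the annotated gene, 720 bases or more from its outermost 5′ end. The Il6 stretch lies on the plus strand at chr5:30012864-30013113, and its capitals mark a match to the NF-kappaB motif, spelled as those capitals with any base allowed in the fifth position, at 44 to 35 bases before the start.
Socs3 promoter: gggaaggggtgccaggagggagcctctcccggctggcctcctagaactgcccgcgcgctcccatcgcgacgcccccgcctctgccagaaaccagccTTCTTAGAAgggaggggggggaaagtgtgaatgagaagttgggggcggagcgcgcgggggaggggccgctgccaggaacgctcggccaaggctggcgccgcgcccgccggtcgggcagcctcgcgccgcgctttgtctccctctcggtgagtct
Il6 promoter: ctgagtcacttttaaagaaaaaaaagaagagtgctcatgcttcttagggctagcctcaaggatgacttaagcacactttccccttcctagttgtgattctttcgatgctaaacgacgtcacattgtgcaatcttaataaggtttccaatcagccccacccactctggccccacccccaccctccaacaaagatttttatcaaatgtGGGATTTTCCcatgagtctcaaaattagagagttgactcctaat

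Both strands were searched, all 10 genes had a promoter in the table, and the motifs do not overlap each other here. The STAT motif was found in the promoter of 1 of the 10 genes, Socs3, against 7.02% of the 32851 promoters of the table. The NF-kappaB motif was found in 1 of the 10, Il6, against 0.356% of all promoters. These are matches of letters and say nothing about binding.

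Array probes are 60 bases long, and probes of the same gene were often detected on very different numbers of arrays. A probe each of Osmr and Il6ra is shown in lower case because the detection of these genes turned on which probe was read. Positions are those of the array files (mm9), both on the minus strand: chr15:6791978-6792037 for Osmr and chr3:89680743-89680802 for Il6ra.
Osmr probe A_66_P124309: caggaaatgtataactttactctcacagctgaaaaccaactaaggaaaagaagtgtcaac
Il6ra probe A_51_P415855: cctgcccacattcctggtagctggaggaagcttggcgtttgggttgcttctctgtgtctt

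Across the 6 conditions 0 of the 9 tested members passed the F-test of limma after Benjamini-Hochberg adjustment over all genes. The same test called 0 of 18448 genes, or 0%, and 387 genes, 2.1%, had an unadjusted p under 0.05. None of the 9 members was among those 387, the smallest unadjusted p being 0.22 for Jak2, and each member had an adjusted p of 1.00. In the 54 contrasts of a member in a condition against the other 5, 0 passed, as for all genes (0% in each condition), and the smallest adjusted p was 0.875. Unadjusted p-values under 0.05 were found in 3 of the 54, for Jak2 in HC6, Jak1 in HC4 and Socs3 in HC5. Over all genes the share with such a p ran from 1.58% in HC3 to 5.49% in HC5, with 2.95% in HC6 and 1.89% in HC4. In 0 of the 54 did the 4 pools of the condition stand clear of the other 20, a description for which no share over all genes is given. Of the 135 differences of members between pairs of conditions, 6 had an unadjusted p under 0.05, beside 2.84% of 276720 over all genes and pairs. Of the 135, 0 passed (0% over all genes and pairs), with an adjusted p of 1.00 for each. When the conditions were put in order of their means, 0 of 5 neighbouring pairs differed by more than the larger of their SDs, for each of the 9 genes. For each single gene below, member or listed, the condition set against the other 5 is that of smallest unadjusted p among the 6. The intervals printed with these differences are not adjusted for that choice.

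**Figure D1:**
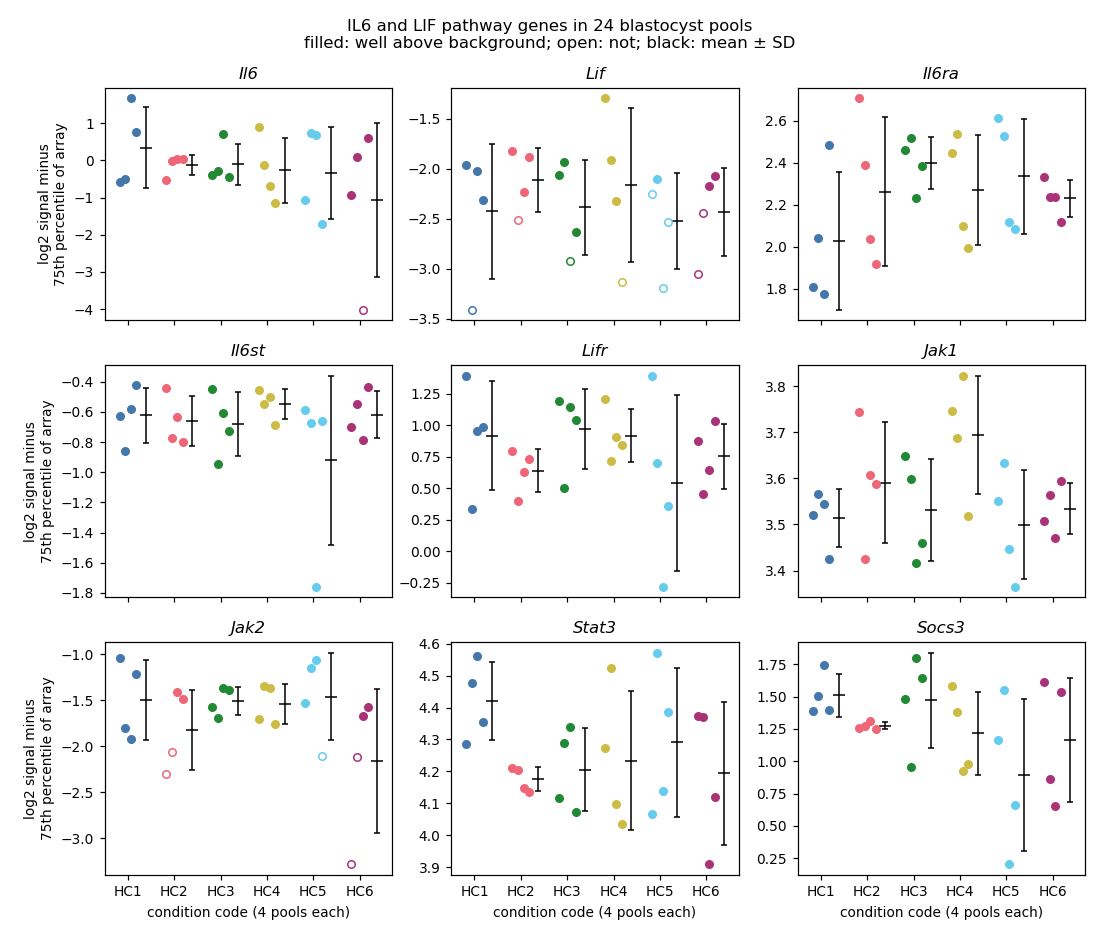
Log2 signal minus the 75th percentile of the array (vertical axis) for the probe used for each of the 9 tested genes, by condition code. Each point is a pool, filled where the probe was well above background and open where it was not, and black marks give the mean ± SD of 4 pools. The values of each condition overlap those of the others in all 9 panels, and vertical scales differ between panels.

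Il6, the gene of the cytokine itself (chr5:30013114-30019975 in GRCm38.p6), was well above background on 23 of 24 arrays and ranged widely between pools of the same code. Its probe A_55_P1997756 stood at -0.58, -0.50, 1.67 and 0.77 in the HC1 pools, at -0.52, -0.02, 0.04 and 0.05 in HC2 and at -0.39, -0.28, 0.71 and -0.46 in HC3. It stood at 0.89, -0.12, -0.68 and -1.16 in HC4, at -1.07, 0.74, 0.68 and -1.71 in HC5 and at -0.92, 0.10, -4.01 and 0.60 in HC6. High and low pools thus occurred under the same code, and the value of -4.01, in HC6 replicate 3, was not well above background. The highest pool, HC1 replicate 3, was 10.4-fold above the lowest detected pool, HC5 replicate 4. Against HC6 replicate 3 it was at least 19.0-fold higher, taking for that pool the lowest signal of any probe well above background on its array (-2.58).

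The SD of Il6 over the 24 pools was 1.12 log2, larger than that of 99.9% of the 13743 genes well above background on at least 23 arrays. Without HC6 replicate 3 it was 0.79 (n = 23), still larger than that of 99.3% of those genes in the same pools. Condition means ran from -1.06 ± 2.07 in HC6 to 0.34 ± 1.08 in HC1 (SD, n = 4 each). In HC6 Il6 was 0.96 log2 below the other 5, -1.06 ± 2.07 in HC6 (n = 4) against -0.10 ± 0.82 in the other 20 pools, with a 95% interval of -2.22 to 0.30. That difference rested on HC6 replicate 3: without it HC6 stood at -0.07 ± 0.77 (n = 3) and the difference was 0.02. With all pools it was -0.30 with normexp background correction and quantile scaling, and -0.41 with the authors' deposited values. Within the 3 slides of 8 arrays the HC6 difference was -0.64, -2.47 and 0.81, so its sign was not the same on each slide.

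The array of HC6 replicate 3 was not dim, with a 75th percentile of 87.1 and 45.3% of spots well above background. In that pool the mean of the 9 trophectoderm markers was 0.35 log2 below its average over the pools (-0.35, the lowest of the 24), and that of the 3 cumulus or granulosa markers was 1.34 above (the highest of the 24). Of those 3 cumulus or granulosa genes only 1 was well above background on all 24 arrays, and 5 of the 10 listed were on none. The part of the trophectoderm and the cumulus or granulosa markers in the low Il6 value was not tested.

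A further Il6 probe, A_55_P2733612, lies 148 bases away from the first in the array's coordinates and was well above background on 19 arrays. Over those 19 pools the 2 probes followed each other closely, with Pearson r = 0.93 and Spearman rho = 0.91 (permutation p = 1e-05, the smallest that 100000 permutations can give, and adjusted p = 8e-05 for each, over 8 pairs of probes of a gene). The r was 0.92 without the 2 pools farthest from the median and 0.93 on deviations from the condition means. In HC6 replicate 3 the further probe was also not well above background, at -4.41. No other of the 8 pairs of probes passed in either measure, with r from -0.17 for the Il6st probes to 0.44 for a pair of Lifr probes.

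**Figure D2:**
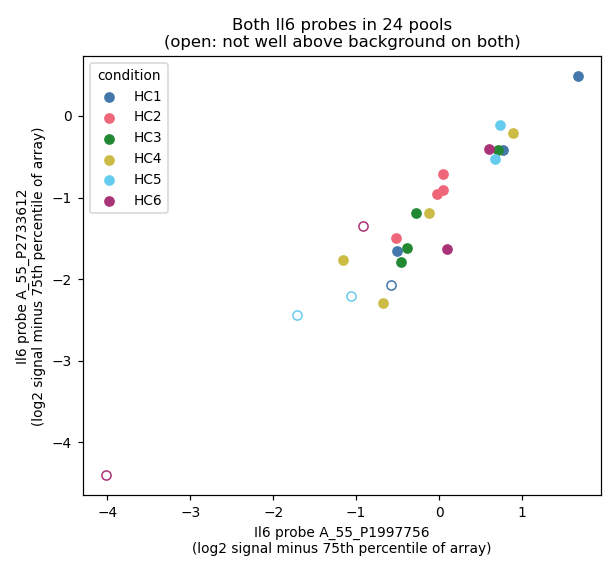
Log2 signal of the Il6 probe A_55_P1997756 (horizontal axis) and of A_55_P2733612 (vertical axis), both minus the 75th percentile of the array, for 24 pools coloured by condition code. Open points are pools in which at least 1 of the probes was not well above background; the pool at the lower left is HC6 replicate 3 (-4.01 and -4.41).

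Lif, the ligand of LIFR, was near the limit of detection. Its only probe was well above background on 15 of 24 arrays: 3 of 4 pools in each of HC1, HC2, HC3 and HC4, 1 of 4 in HC5 and 2 of 4 in HC6. In HC2 the 4 pools stood at -1.83, -2.51, -2.24 and -1.89, of which -2.51 was not well above background, against a lowest value of -3.41, a median of -2.28 and a highest of -1.30 in the other 20. The ranges overlapped, and the difference of 0.27 log2 (95% interval -0.33 to 0.87) was the Lif difference of smallest p among the 6 conditions against the other 5. It was 0.05 both with normexp background correction and quantile scaling and with the authors' deposited values, and 0.18 to 0.40 with 1 pool left out at a time.

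The receptor genes differed in how reliably they were detected. The probe used for Il6ra, the IL6-binding subunit, was detected on each of the 24 arrays at values from 1.77 to 2.71, a 1.91-fold range. In HC1 the pools stood at 1.81, 2.04, 1.77 and 2.48, against 1.92 to 2.71 with a median of 2.28 in the other 20. The HC1 mean was 2.03 ± 0.33 (n = 4) against 2.30 ± 0.22 in the other 20, a difference of -0.27 log2 with an interval of -0.56 to 0.02. It was negative on 2 of 3 slides (-0.55 and -0.57) and positive on the third (0.37).

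Il6st, which encodes gp130 (chr13:112464070-112506860 in the same build), had its probe A_51_P473888 well above background on all 24 arrays. In HC5 it stood at -0.59, -0.68, -1.76 and -0.66, against a lowest value of -0.95, a median of -0.62 and a highest of -0.42 in the other 20 pools. In this probe a single pool, HC5 replicate 3, lay below all the others. The HC5 mean of -0.92 ± 0.56 (n = 4), against -0.63 ± 0.16 in the other 20, became -0.64 ± 0.05 without that pool (n = 3), and the difference was then -0.01 in place of -0.29. With all pools it was -0.12 with normexp and quantile scaling and -0.17 with the authors' deposited values. The further Il6st probe A_55_P2917440, detected on 16 arrays, did not show the low pool. It was well above background in HC5 replicate 3 at -1.80, above its median of -2.13 over the 24 pools.

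Lifr, the LIF receptor subunit (chr15:7090610-7197489 in the same build), was also detected on all 24 arrays by its probe A_55_P2159259 and spanned a 3.20-fold range. Its pools stood at 1.39, 0.34, 0.95 and 0.99 in HC1, at 0.80, 0.40, 0.63 and 0.74 in HC2 and at 1.20, 0.50, 1.14 and 1.04 in HC3. They stood at 1.21, 0.72, 0.91 and 0.84 in HC4, at 1.40, 0.71, -0.28 and 0.36 in HC5 and at 0.88, 0.46, 0.64 and 1.04 in HC6. HC5 held both the highest pool and the lowest, and the lowest was again replicate 3. The HC5 mean was 0.55 ± 0.70 (n = 4) against 0.84 ± 0.29 in the other 20, and 0.82 ± 0.53 without replicate 3 (n = 3). The difference was -0.30 log2 with it and -0.02 without it. In the Lifr probe A_55_P2827477, detected on 23 arrays, HC5 replicate 3 stood at -1.03 and was not the lowest. HC6 replicate 2 stood at -1.14 and HC5 replicate 4, not well above background, at -1.66. In A_55_P2159264, detected on 9 arrays, HC5 replicate 3 was the lowest at -4.35, not well above background.

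Osmr, the oncostatin M receptor subunit, had 3 probes, which were well above background on 1, 2 and 0 of 24 arrays. The probe whose sequence is given above stood at 1.79 in HC4 replicate 1 and at -0.43 in HC3 replicate 1, and its median over the 24 pools was -4.64. The probe A_51_P319460 stood at -1.06 in HC2 replicate 3, with a median of -4.65, and the third probe was not well above background on any array. No pool had more than 1 Osmr probe well above background, so the probes disagree and no level of Osmr is given.

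**Figure D3:**
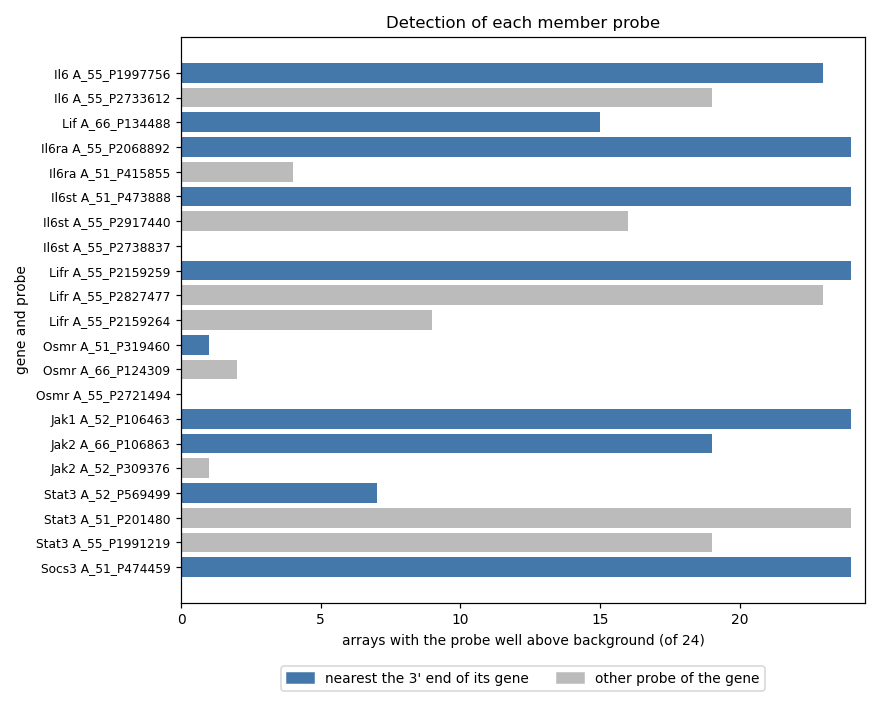
Number of arrays, of 24, on which each of the 21 probes was well above background (horizontal axis), with the probe nearest the 3′ end of its gene in blue and other probes in grey. For 5 of the 7 genes with several probes the 3′-most probe was detected on most arrays; Stat3 and Osmr were the exceptions.

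For 5 of the 7 genes with several probes, the probe nearest the 3′ end was the one detected on most arrays. The same share over other genes with several probes is not given here, so the count describes these 7 genes only. The Il6ra probe at the 3′ end was detected on 24 arrays, and the one shown above, 6689 bases of genome farther upstream, on 4. The 3 Il6st probes were detected on 24, 16 and 0 arrays, the 3 Lifr probes on 24, 23 and 9, and the 2 Jak2 probes on 19 and 1, each from the 3′ end. Stat3 differed, its 3′-most probe being detected on 7 arrays, the next on 24 and the remaining one on 19. Genomic distances include introns, and the transcripts that each probe detects were not tested.

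The kinase genes contrasted in their spread. Jak1, a kinase bound to gp130, was detected on all 24 arrays and was among the steadier genes, with an SD of 0.12 log2. Of the 13743 genes well above background on at least 23 arrays, 5.33% had a smaller SD. In HC4 the pools stood at 3.75, 3.69, 3.82 and 3.52, against a lowest value of 3.36, a median of 3.55 and a highest of 3.74 in the other 20, so 2 HC4 pools lay above all the rest. The HC4 mean was 3.69 ± 0.13 (n = 4) against 3.53 ± 0.09 in the other 20, a difference of 0.16 log2 (95% interval 0.02 to 0.30, limma unadjusted p = 0.0315, adjusted p = 0.998). It was 0.18, 0.13 and 0.18 within the slides, and the median difference of all genes in HC4 was 0.05. In HC4 9 of 10 inner cell mass and epiblast markers and 10 of 10 primitive endoderm markers also had higher means than in the other 5. The median was 0.14 log2 in each list and none was called, beside 65.0% of all genes higher in HC4. Primitive endoderm markers were also higher for 10 of 10 in HC1, and inner cell mass and epiblast markers for 8 of 10 in HC6. The Jak1 difference was -0.06 in HC1 and -0.03 in HC6. The part of these markers in the Jak1 value was not tested.

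Jak2, the related kinase, was well above background on 19 of 24 arrays. In HC6 the pools stood at -3.28, -2.11, -1.68 and -1.58, against a lowest value of -2.31, a median of -1.51 and a highest of -1.05 in the other 20. The HC6 pools at -3.28 and -2.11 were not well above background. The HC6 mean was -2.16 ± 0.78 (n = 4) against -1.56 ± 0.35 in the other 20, a difference of -0.60 log2 (95% interval -1.11 to -0.09, limma unadjusted p = 0.0233, adjusted p = 0.999). It was -0.22 without HC6 replicate 1, and -1.60, -0.42 and -0.13 within the slides. With normexp background correction and quantile scaling it was -0.15, and with the authors' deposited values -0.24.

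Stat3, the transcription factor of the pathway, varied little in its probe A_51_P201480, which was well above background on all 24 arrays over a 1.58-fold range. In HC1 it stood at 4.29, 4.48, 4.56 and 4.36, against a lowest value of 3.91, a median of 4.18 and a highest of 4.57 in the other 20. The HC1 pools lay in the upper part of the range without leaving it. Their mean was 4.42 ± 0.12 (n = 4) against 4.22 ± 0.17, a difference of 0.20 log2 whose interval was -0.01 to 0.41. Fitted probe by probe, the 3′-most Stat3 probe had the smallest F-test p of the 16 kept probes of the members (limma unadjusted p = 0.0132, adjusted p = 1.00), on a signal detected on 7 arrays.

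Socs3, the feedback inhibitor (chr11:117966079-117970336 in the same build), was detected on all 24 arrays by its single probe, with a 3.02-fold range. It stood at 1.39, 1.51, 1.74 and 1.40 in HC1, at 1.26, 1.28, 1.31 and 1.25 in HC2 and at 1.48, 0.95, 1.80 and 1.65 in HC3. It stood at 1.58, 1.38, 0.92 and 0.98 in HC4, at 1.17, 1.55, 0.20 and 0.66 in HC5 and at 1.61, 0.86, 0.65 and 1.53 in HC6. HC2 pools lay close together, and the lowest pool was HC5 replicate 3. The HC5 mean was 0.90 ± 0.59 (n = 4) against 1.33 ± 0.31 in the other 20, a difference of -0.43 log2 (95% interval -0.84 to -0.02, limma unadjusted p = 0.0421, adjusted p = 0.875). Within the slides it was -0.31, 0.24 and -0.92, and without HC5 replicate 3 it was -0.20.

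HC5 also had the lowest average array signal of the 6 codes. The log2 of the 75th percentile averaged 6.02 ± 0.38 in HC5, against means between 6.45 ± 0.51 in HC1 and 6.70 ± 0.20 in HC4 for the other 5 (SD, n = 4 each), and Socs3 followed this measure over the 24 pools (Pearson r = 0.57, permutation p = 0.00317, adjusted p = 0.0266; Spearman rho = 0.54, permutation p = 0.00686, adjusted p = 0.0586). HC5 replicate 3, the lowest pool of Il6st, Lifr and Socs3 in the probes used for them, stood at 5.85 in this measure. HC5 replicate 4 stood at 5.56. Both lay below every pool of the other codes, of which the lowest, in HC1, stood at 5.93. The part of array signal in the HC5 values was not tested.

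**Figure D4:**
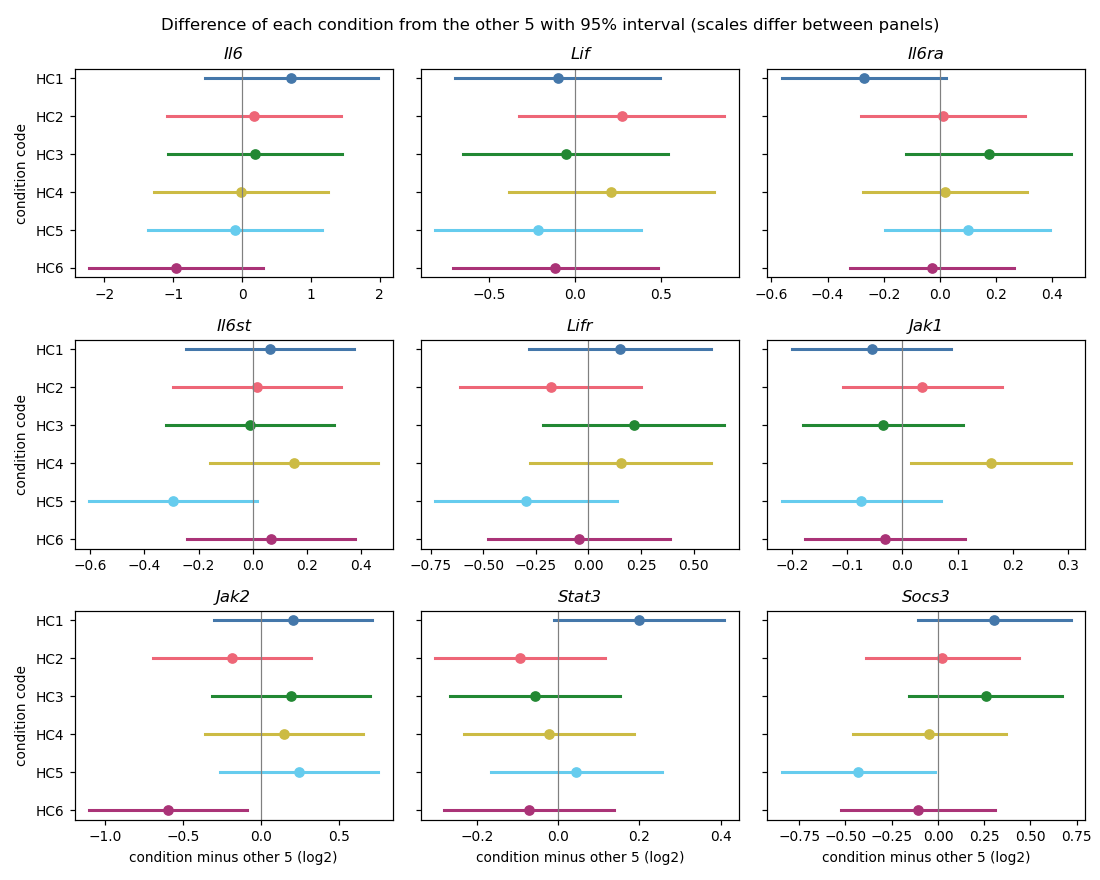
Difference of each condition from the mean of the other 5 in log2 units (horizontal axis) for the 9 tested genes, with bars for the limma 95% interval. The intervals that leave out 0 are those of Jak1 in HC4 (0.02 to 0.30), Jak2 in HC6 (-1.11 to -0.09) and Socs3 in HC5 (-0.84 to -0.02), none of which passed after adjustment; horizontal scales differ between panels.

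Taking the members as a group, 1 of 9 was higher in HC6 than in the other 5, with a median difference of -0.07 log2, beside 8889 of 18448 genes and a median of -0.0056 over all genes. In HC5 3 of 9 were higher (median -0.10), beside 8797 genes. In HC4 6 of 9 were higher with a median of 0.15, beside 11992 genes and a median of 0.05. In HC1 6 of 9 were higher (median 0.15), beside 8811 genes, or 47.8% of all tested. In HC2 6 of 9 were higher (median 0.02), beside 7716 genes, or 41.8%. In HC3 5 of 9 were higher (median 0.17), beside 9207 genes, or 49.9%. The 6 contrasts use the same 24 pools, so these counts are not independent.

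Other genes of the pathway gave no call either, with 0 genes passing the F-test in each list. Of 10 other ligands of the family, 4 were tested, among them Cntf, Il27 and Osm. Cntf, the gene of ciliary neurotrophic factor, was at -0.33 ± 0.81 in HC5 (n = 4) against -0.06 ± 0.15 in the other 20 pools. Osm, the ligand of OSMR, was well above background on 12 of 24 arrays. Of 4 other receptor genes 1 was tested, Il11ra1, the IL11-binding subunit, which was detected on all 24 arrays at 3.22 ± 0.26 in HC1 against 3.02 ± 0.24 in the other 20.

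Among 8 other Janus kinases and STAT factors 7 were tested. Jak3, a kinase of lymphoid cytokine receptors, was at -0.55 ± 0.24 in HC5 (n = 4) against -1.05 ± 0.32 in the other 20 pools, a difference of 0.50 log2 (95% interval 0.14 to 0.87, limma adjusted p = 0.875). All 17 other regulators, among them the SOCS and PIAS families and the phosphatases, were tested. In HC4 16 of the 17 regulators were higher, with a median of 0.08, beside 11992 of 18448 genes and 0.05 over all genes. Socs1, a further feedback inhibitor, was at 2.52 ± 0.39 in HC1 against 2.24 ± 0.19 in the other 20.

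All 18 listed targets of STAT3 were tested, and 1 of them, Ccnd1, had an unadjusted p under 0.05 in the F-test (0.022, limma adjusted p = 1.00). Ccnd1, which encodes cyclin D1, was at -2.18 ± 0.28 in HC2 (n = 4) against -1.43 ± 0.50 in the other 20 pools, a difference of -0.75 log2 with an interval of -1.24 to -0.25. Tbx3, a factor of naive pluripotency, was at 4.97 ± 0.04 in HC1 against 4.80 ± 0.12. Pim1, a kinase gene induced by STAT3, was at 2.25 ± 0.32 in HC3 against 1.94 ± 0.18. Egr1 was well above background in 0 of 4 HC3 pools and in 11 of the other 20.

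Lifr, Il6st and Socs3 varied together from pool to pool by Pearson correlation. Of the 15 pairs among the 6 members detected on all 24 arrays, their 3 pairs passed (100000 permutations, two-sided, adjusted over the 15), and 0 pairs passed by Spearman correlation. For Il6st and Lifr r was 0.73 (p = 0.00025, adjusted p = 0.00375) and rho 0.57 (p = 0.00454, adjusted p = 0.0619). For Lifr and Socs3 r was 0.65 (p = 0.00072, adjusted p = 0.0054) and rho 0.53 (p = 0.00826, adjusted p = 0.0619). For Il6st and Socs3 r was 0.59 (p = 0.0067, adjusted p = 0.0335) and rho 0.26 (p = 0.216, adjusted p = 0.431). Without the 2 pools farthest from the median the r values were 0.49, 0.54 and 0.14, and the adjusted p-values 0.158, 0.133 and 0.627. The relation of Il6st and Socs3 thus rested on those pools, whereas the other pairs kept a positive r without passing the adjusted test. Within the slides r ran from 0.37 to 0.89 for Il6st and Lifr, from -0.06 to 0.91 for Lifr and Socs3 and from -0.06 to 0.72 for Il6st and Socs3. Il6 passed with none of the 6 members over the 23 pools in which it was detected, the r ranging from -0.08 to 0.34.

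Markers of the primitive endoderm, the layer of the blastocyst that forms the yolk sac, moved with the same 3 genes. Their score is the mean, over 10 markers, of the deviation from the average of the 24 pools, and all 10 markers were tested and detected on 24 arrays. The score ran from -0.75 to 0.38 in HC5, against -0.26 to 0.31 over the other conditions. The pool at -0.75 was HC5 replicate 3, the lowest pool of all 3 genes in the probes used for them. Lifr followed the score with r = 0.85 (permutation p = 1e-05, again the smallest possible, adjusted p = 0.00042) and rho = 0.74 (p = 4e-05, adjusted p = 0.00168). The adjustment is over the 42 relations of 7 members with 5 marker scores and the array signal, of which 7 passed by Pearson and 1, that of Lifr with the primitive endoderm, by Spearman correlation.

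That relation of Lifr held without the 2 farthest pools (r = 0.71), on deviations from the condition means (0.87) and within each slide (0.98, 0.57 and 0.85). The correlation of Lifr with single markers was positive for 10 of 10, from 0.05 for Gata6 to 0.87 for Lamb1, a laminin chain gene, with a median of 0.69. For Il6st the r with the score was 0.76 (p = 0.00053, adjusted p = 0.0111; rho = 0.50, p = 0.0138, adjusted p = 0.0826) and 0.44 without the 2 farthest pools. With the inner cell mass and epiblast score Il6st had r = 0.41 (permutation p = 0.0231, adjusted p = 0.0884) and rho = 0.56 (permutation p = 0.00484, adjusted p = 0.0586). That r was 0.63 without the 2 farthest pools, and 0.93, -0.24 and 0.48 within the slides. For Socs3 the r with the primitive endoderm score was 0.62 (p = 0.0016, adjusted p = 0.0224; rho = 0.38, p = 0.0699, adjusted p = 0.204), and 0.28 without the 2 farthest pools, with 0.04 on the first slide. Array signal moved with Lifr too (r = 0.51, permutation p = 0.0112, adjusted p = 0.0587), with r of 0.14, 0.94 and 0.82 within the slides. With the score itself the r of array signal was 0.33 (permutation p = 0.113, adjusted p = 0.363), and 0.24, 0.58 and 0.63 within the slides. The part of array signal in the relation of Lifr with the score was not tested.

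**Figure D5:**
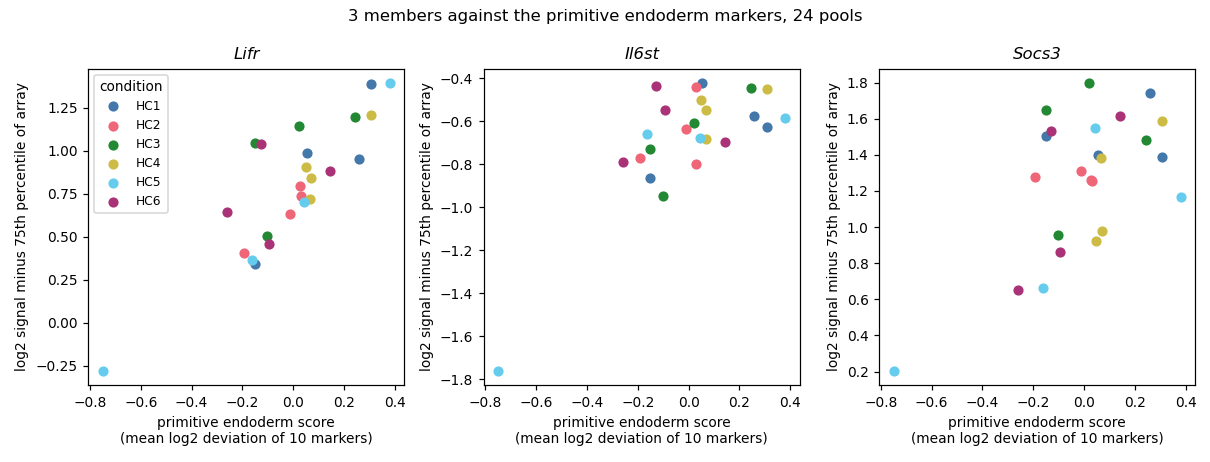
Log2 signal minus the 75th percentile of the array for Lifr, Il6st and Socs3 (vertical axes) against the primitive endoderm score, the mean log2 deviation of 10 markers (horizontal axes), in 24 pools coloured by condition code. The single pool at the lower left, HC5 replicate 3, stands apart in each panel. Over all pools r was 0.85 for Lifr, 0.76 for Il6st and 0.62 for Socs3. Without the 2 pools farthest from the median of the gene it was 0.71, 0.44 and 0.28.

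Relations with 2 other marker scores also passed by Pearson correlation and not by Spearman. Il6 followed the trophectoderm score over 23 pools (r = 0.56, p = 0.00559, adjusted p = 0.0368, and rho = 0.56, p = 0.0063, adjusted p = 0.0586, with r = 0.43 without the 2 farthest pools). Il6 also moved with array signal over those pools without passing (r = 0.50, permutation p = 0.0166, adjusted p = 0.0767). That r was 0.68, 0.72 and 0.35 within the slides and 0.26 without the 2 farthest pools. The part of array signal in the Il6 values was not tested. The r of Il6 with the single trophectoderm markers was positive for 7 of 9. It ran from -0.11 for Cdx2 to 0.66 for Tfap2c, with a median of 0.18. Jak1 followed the score of the inner cell mass and epiblast (r = 0.59, p = 0.00214, adjusted p = 0.0225; rho = 0.55, p = 0.00698, adjusted p = 0.0586; r = 0.53 without the 2 farthest). Stat3 followed the trophectoderm score (r = 0.54, p = 0.00613, adjusted p = 0.0368; rho = 0.41, p = 0.0477, adjusted p = 0.167), but not without the 2 farthest pools (r = 0.26), and its r was -0.19, 0.95 and -0.36 within the slides.

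The genes whose pattern over the 24 pools was most like that of these 3 members were searched among 9986 genes detected on all arrays. Nearest to Lifr were Mvb12b (r = 0.92), Lamb1 (0.87) and Serpinh1 (0.86), the last a collagen chaperone gene. Nearest to Il6st were Pdgfra (0.82), one of the primitive endoderm markers, Fgf4 (0.81), one of the inner cell mass and epiblast markers, and Rcn1 (0.80). Nearest to Socs3 were Tfpi (0.82), Cic (0.78) and Tnfrsf1a (0.74). These are the highest of many values and are given as a description.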

How the data were processed

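Spot intensity was deposited as scanner output of Agilent Feature Extraction (version 10.10.1.1 in the submitters' processing notes, which give limma without one). Its processed signal had background removed within each array, per the file headers, with no scaling between arrays. The authors' deposited table of log2 values (27101 probes, each column's median at 7.0) served as an alternative; its normalization is not given in the sources used here. Control and outlier spots were left out, log2 signals were averaged per probe, and each array's 75th percentile was subtracted. Kept probes were well above background on 4 or more of the 24 arrays, with at least 2 values per condition, and the brightest kept probe stood for a gene. limma 3.58.1 (R 4.3.3) fitted 6 condition means, with Benjamini-Hochberg adjustment at 0.05 over all genes. Correlations used 100000 permutations. The members and gene lists were chosen with earlier results of these data known. Named were the 10 members, up to 4 genes of smallest F-test p per pathway list, and the 3 genes most like each of the 3 most variable members detected on all arrays; 1 of the listed genes is not reported here. The code was checked on simulated data. Probe-wise fits, correlations of Il6, of probes and of marker scores, and means without single pools were added after seeing the data.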

Additional observations from a re-analysis of the deposited data

Results flagged for a closer look

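In groups of 4 pools, a pool far from the other 3 was looked for in each of the 9 tested members and 6 conditions. It was found in 3 of 54 groups, and chance alone gives about 1 in 20. Il6 in HC2 replicate 1 stood at -0.52, with the other 3 pools between -0.02 and 0.05. Il6 in HC3 replicate 3 stood at 0.71, with the others between -0.46 and -0.28. Il6st in HC5 replicate 3 stood at -1.76, with the others between -0.68 and -0.59. In the probes used for these genes, the same pool had the lowest Lifr and the lowest Socs3 of the 24. It also had the lowest primitive endoderm score.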

How the results depend on the processing

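The 9 member contrasts named above were recomputed under 36 alternatives each (324 values), and 0 passed; the smallest adjusted p was 0.39, and for the F-tests of the members 0.922. A change of sign occurred in 1 value: Il6 in HC6, -0.96 with all pools, ran from -1.52 without HC6 replicate 4 to 0.022 without HC6 replicate 3. Counts over all genes, 0 each with all pools, moved a little: leaving out a pool in turn gave 0 to 1 genes in the F-test, 0 to 4 combinations over the pairs, 0 to 1 in HC1, 0 to 4 in HC2, 0 to 2 in HC4 and 0 to 1 in HC5; the counts above 0 came without HC1 replicate 3 (F-test 1, pairs 4, HC1 1), HC2 replicate 1 (HC2 4), HC4 replicate 4 (pairs 3, HC4 2) and HC5 replicate 1 (HC5 1). The authors' deposited values gave 2 genes in HC2, array weights 1 in HC4 and no filter 1 in HC5. Of the pairs of members that correlated, 3 with the main scaling, 1 passed with the authors' deposited values and 0 without the 2 farthest pools. With the replicate block 0 genes were called in every comparison and the Jak1 difference in HC4 stayed at 0.16. Deviations of pools sharing a number had r over 0.1 in 25 of 60 pairs, and r ran from -0.32 to 0.34. The median r was -0.011 for these pairs and -0.0057 for pools of other codes and numbers, whose share over 0.1 is not given. Of 24 pools, 13 were closest to a pool of their own number, which 5 of the 20 pools of other codes carry. The labels do not say what a number marks, and since not every pair was over 0.1 the pools were not treated as paired. Permutations for the correlations took all pools as exchangeable. Their p-values do not allow for structure shared by number, which was not tested further. The correlation of Lifr with the primitive endoderm score was 0.82 to 0.84 under 4 other scalings. Lif, Jak2 and Osmr were limited by signals near background.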
